A study of Mus musculus with 8 samples.

Results

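Respiratory complex I, NADH:ubiquinone oxidoreductase, was described here through the nuclear genes of its subunits in gastrocnemius, a large muscle at the back of the lower leg. The members were the rows of the deposited count table whose gene symbol is 1 of 35 listed subunit genes. All 35 were present among 35949 gene rows, and all 35 passed the filter on low counts. They comprise 6 core subunits (Ndufv1, Ndufv2, Ndufs1, Ndufs3, Ndufs7 and Ndufs8) and 29 accessory subunits. Grouped by assembly module they are 9 genes of the N module, 6 of the Q module, 9 of the proximal pump, 10 of the distal pump and Ndufab1. Module schemes differ for Ndufa6, Ndufa7, Ndufa9, Ndufa11 and Ndufab1.

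The study profiled polyA RNA of muscle from mice described only as aged, all of which had received hematopoietic stem cells (HSCs), the blood-forming cells of the bone marrow. The series' design text names control cells and cells overexpressing SIRT3, a deacetylase of mitochondria, as the transplants. The genotype labels are WT (4 libraries) and T3TG (4 libraries). They are taken here to stand for control and SIRT3-overexpressing donor cells, and so to name the transplant and not the muscle measured. The titles carry Mx1 for WT and T3 for T3TG without explanation. The sources used here do not give the transgene's promoter, the ages, the conditioning of the recipients or whether each library is a separate animal. The p-values therefore measure the spread between these samples, which may be technical.

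Complex I takes electrons from NADH, passes them through a flavin and a chain of iron-sulfur clusters to ubiquinone, and uses the energy to pump protons across the inner mitochondrial membrane. The N module binds and oxidizes NADH, the Q module reduces ubiquinone, and the proximal and distal pump modules form the membrane arm. Core subunits are conserved from bacteria and carry the catalysis, while accessory subunits surround and stabilize them. The membrane core is encoded in mitochondrial DNA, and all other subunits are made in the cytosol and imported. Skeletal muscle, rich in mitochondria, uses the complex to feed oxidative phosphorylation.

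Library totals ran from 16.2 to 28.1 M counts, and the members took 0.598% to 0.765% of them, with 890 to 12282 counts per member and library. Levels below are CPM, counts scaled to the library size with TMM factors. Ckm, muscle creatine kinase, marked the tissue with means of 24460 CPM (WT) and 23516 CPM (T3TG). The Sirt3 level, 18.9 ± 2.49 CPM (WT) and 17.7 ± 2.50 CPM (T3TG; SD over 4 libraries), checks nothing about a transgene carried by donor blood cells. Even numbers made up almost all counts of T3TG replicates 2 and 3, 97.5% and 98.0% of values from 10 to 99 against 50.5% to 52.6% in the other libraries. Their totals may overstate the fragments counted, and the main counts are given below also for the 6 libraries without them.

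Promoters of the members are shown first, as background. A relation of their motifs to the variation across libraries described below was not tested. Sequences and coordinates are RefSeq's for GRCm38.p6, the assembly behind mm10, and 32 of 35 members matched; Ndufs1, Ndufa2 and Ndufb9 are named only. Each window covers 250 bases before to 50 bases after the annotated start, read on both strands for short motifs of factors known to act on respiratory genes. The motif AAGATGG, of the initiator factor YY1, was found in 7 of 32 members (21.9%), against 8.16% of the promoters of tested genes. In all 7 it began between bases 23 and 39 after the start (base 1 is the first transcribed base), and its ATG is the annotated start codon. They are shown 5′ to 3′ on the gene's strand, with the motif in capitals.
Ndufa3 (chr7:3617386-3617410, plus strand): gccaagaacAAGATGGccgggagta
Ndufa9 (chr6:126849100-126849124, minus strand): ttgtgggagAAGATGGcggccgccg
Ndufb8 (chr19:44555393-44555413, minus strand): gagaaggtgAAGATGGctgcc
Ndufc1 (chr3:51408918-51408942, minus strand): ctgcggaacAAGATGGcgccgtccg
Ndufs4 (chr13:114388045-114388068, minus strand): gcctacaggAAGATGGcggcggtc
Ndufs6 (chr13:73328434-73328458, minus strand): gtcaccggcAAGATGGcggcggtgc
Ndufs7 (chr10:80249464-80249488, plus strand): gccgaggccAAGATGGcggcgctgg

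The motif of nuclear respiratory factor NRF1, GCGCA and GCGC parted by any 1 base, was also found in 7 of 32 members (21.9%), against 10.8% of the promoters of tested genes. The members holding it were Ndufa5, Ndufa6, Ndufa8, Ndufa11, Ndufb4, Ndufs5 and Ndufs6. Ndufs6 was the only member with both the YY1 and the NRF1 motif. Ndufb4 alone also held TNAAGGTCA, of the estrogen-related receptors, which 0.947% of the promoters of tested genes hold. The NRF1 match nearest the start is shown in capitals for 6 of these promoters; Ndufa5 and Ndufb4 hold further NRF1 matches that are not printed. In Ndufa8 and Ndufs6 the match lies on the opposite strand, so that the capitals read as its reverse complement. They are shown because these motifs name factors whose own transcripts are given further below.
Ndufa5 (chr6:24527697-24527726, minus strand): tgtgtgagctGCGCAGGCGCaaatctacct
Ndufa8 (chr2:36049349-36049378, minus strand): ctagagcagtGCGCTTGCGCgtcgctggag
Ndufa11 (chr17:56717692-56717721, plus strand): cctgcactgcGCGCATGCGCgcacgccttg
Ndufs5 (chr4:123718265-123718294, minus strand): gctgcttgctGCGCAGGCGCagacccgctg
Ndufs6 (chr13:73328483-73328508, minus strand): cgactgctgtGCGCCTGCGCcggcac
Ndufb4, NRF1 match (chr16:37654371-37654400, minus strand): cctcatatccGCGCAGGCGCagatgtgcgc
Ndufb4, estrogen-related receptor match (chr16:37654406-37654435, minus strand): ttcctgagccTGAAGGTCAgactcgagagg

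Of the other motifs read, CCGGAAG, of ETS factors such as GABP, was in 4 of 32 members (12.5%) against 18.7% of tested genes, and CCAAT was in 10 of 32 against 42.0%. In 9 members none of the 5 motifs was found. The motifs were counted independently of each other, and a match describes letters in a window, not a bound site.

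Every one of the 35 subunit genes had a lower mean in T3TG than in WT muscle, by a small amount. The median log2 fold change (T3TG minus WT) was -0.14, a difference of -9.12%, and the members ranged from -0.31 for Ndufa3 to -0.02 for Ndufa10. None passed the threshold of 0.05 on the adjusted p of the edgeR quasi-likelihood test (Benjamini-Hochberg over 14064 genes), which called 0.0711% of all genes, 10 in number and all higher in T3TG. The lowest adjusted p of a member was 0.452 and the highest 0.975. At an unadjusted p under 0.05, 4 members were lower (11.4%), Ndufa3, Ndufb3, Ndufs4 and Ndufa2, against 2.45% of all genes. The share of all genes with a log2 fold change below 0 was 50.9%, and their median was -0.00. The members varied together across libraries, as given below, and were chosen with earlier results known. Counts of them are therefore not counts of independent genes.

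The 95% intervals included 0 for 31 of 35 members, and over all members their bounds ran from 0.675 to 1.12 times the WT level. The SE of the log2 fold changes lay between 0.0753 and 0.155. The groups overlapped in 34 members; in 1 (2.86%), Ndufa12, every T3TG library was below every WT library, against 1.66% of all genes. In the 6 libraries without T3TG replicates 2 and 3, 34 of 35 members were lower with a median of -0.19, against 49.4% of all genes below 0. The exception was Ndufs1 at 0.03. In those libraries 3 members had a lower level with an unadjusted p under 0.05, against 2.21% of all genes, and 0 members and 0% of all genes passed the adjusted threshold. DESeq2's Wald test also called 0 members, with 0.747% of all genes called.

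**Figure D1:**
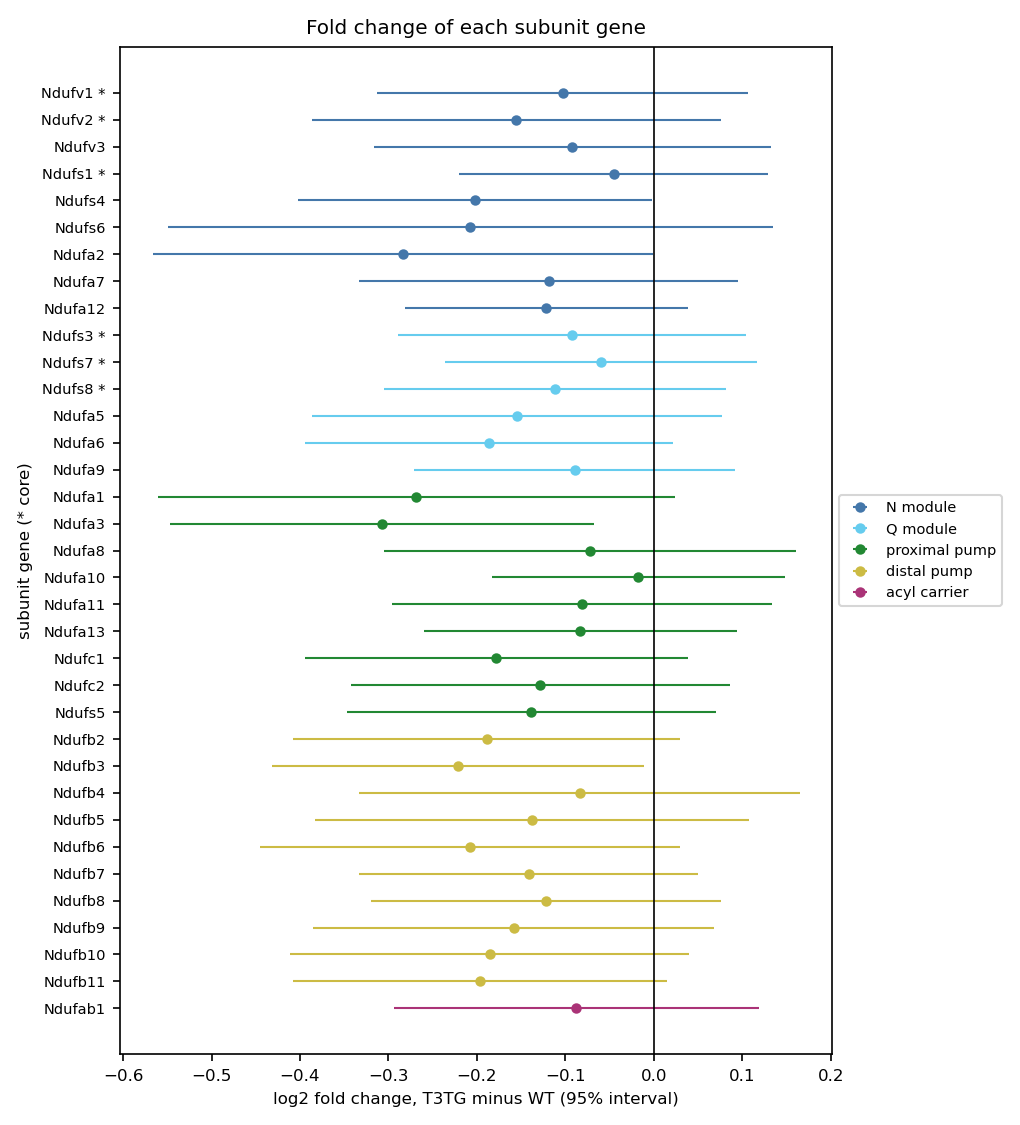
Log2 fold change of each subunit gene (x axis, T3TG minus WT) with its 95% interval from the edgeR fit, colored by module, core genes starred. All 35 points lie below 0, and 31 of the 35 intervals include 0.

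The summed level of the 35 members was 6178, 6600, 7803 and 7540 CPM in WT replicates 1 to 4 and 6507, 6142, 6922 and 6095 CPM in T3TG replicates 1 to 4. WT replicates 3 and 4 were the high libraries, and WT replicates 1 and 2 lay within the T3TG range, so the groups overlapped. WT replicates 3 and 4 were both above every T3TG library in 31 of 35 members. WT replicate 1 lay below the T3TG mean in 27 of 35 and was the lowest of all 8 libraries in 10. The highest library was WT replicate 3 in 22 members and WT replicate 4 in 13. The SD was higher in WT than in T3TG in 32 members, with a median of 12.1% of the mean in WT and 8.58% in T3TG.

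The size of the difference moved with single libraries. Without WT replicate 1 the median log2 fold change was -0.21 and 18 members had a lower level with an unadjusted p under 0.05, against 3.21% of all genes. Without WT replicate 3 it was -0.08, with 0 members at that level and 34 lower, against 1.96% of all genes at that level. Below 0 were 50.4% of all genes in that fit. Without T3TG replicate 3, 7 members were lower at that level, against 2.62% of all genes, and 3 were without WT replicate 2 (2.05% of all genes). Without WT replicate 4 the count was 1 (3.26% of all genes), without T3TG replicate 1 it was 2 (3.06%), and without T3TG replicate 2 (2.28%) or T3TG replicate 4 (2.14%) it was 1. Without a filter on low counts 10 members reached it, against 2.85% of all genes. In these fits 0 members passed the adjusted threshold, where 0% of all genes passed without WT replicate 1 and 0.0348% without WT replicate 3.

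**Figure D2:**
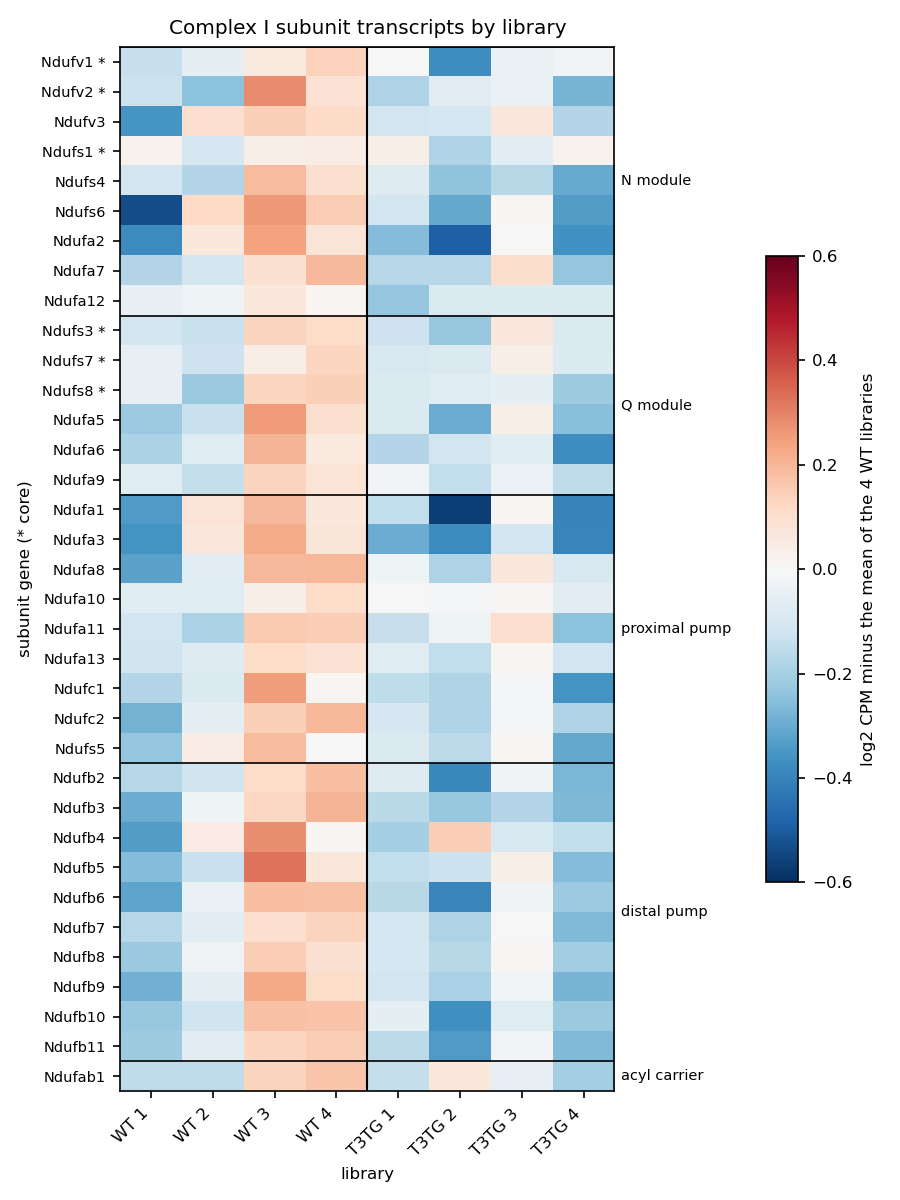
Log2 CPM of each subunit gene (rows, grouped by module, core genes starred) in each library (columns) minus the mean of the 4 WT libraries. WT 3 and WT 4 are high in nearly every row, while WT 1 is as low as the T3TG libraries in most; it is below the T3TG mean in 27 of 35.

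The 9 N module genes had a median log2 fold change of -0.12, with 0 passing the adjusted threshold and 2 lower at an unadjusted p under 0.05. Ndufv1, the core subunit that binds NADH and the flavin (chromosome 19, 4007384 to 4012806, mm10), had 345, 364, 396 and 418 CPM in WT and 380.2, 293, 369 and 375 CPM in T3TG replicates 1 to 4. Apart from the low T3TG replicate 2 these values interleave, and the log2 fold change was -0.10 (SE 0.10). Ndufv2, a core iron-sulfur subunit beside it, had 320.0, 295, 425 and 371 CPM in WT and 307, 334, 338 and 288 CPM in T3TG. Its means of 353 ± 57.9 and 317 ± 23.5 CPM differed by less than the WT spread, with a log2 fold change of -0.16 (SE 0.11). Ndufs1, the largest core subunit with several iron-sulfur clusters, had 386, 355, 389 and 392 CPM in WT and 389.6, 335, 364 and 386 CPM in T3TG. It was the least different core member at -0.05 (SE 0.08), and an exon of it is overlapped on the other strand by Eef1b2.

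Among the accessory N module genes, Ndufs4, a subunit whose loss causes a Leigh-like encephalopathy in mice, had 149, 143, 185 and 173 CPM in WT and 153, 136, 144 and 131 CPM in T3TG. WT replicates 3 and 4 stood above all T3TG libraries, the other WT libraries did not. It was at -0.20 on the log2 scale (SE 0.09; adjusted p = 0.596, edgeR). Ndufa2, which has a thioredoxin-like fold, had 126, 172, 194 and 173 CPM in WT and 137, 117, 165 and 128 CPM in T3TG. It had the lowest value of the module at -0.28 (SE 0.13, edgeR adjusted p = 0.599), and WT replicate 1 was below 3 of the 4 T3TG libraries. Ndufv3, an accessory subunit at the NADH-binding tip, had 84.5, 116, 119 and 117 CPM in WT and 99.9, 101, 113 and 95.7 CPM in T3TG. There WT replicate 1 was the lowest library of all 8, and the log2 fold change was -0.09 (SE 0.11). Ndufs6, which carries zinc, was at -0.21 (SE 0.15) and Ndufa7 at -0.12 (SE 0.10).

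Ndufa12 was the member without overlap and is named for that after its values were seen. Its values were 79.5, 80.7, 86.0 and 83.0 CPM in WT and 70.1, 77.4, 77.7 and 77.4 CPM in T3TG. The gap between the groups was narrow, and the gene was at -0.12 on the log2 scale (SE 0.08; adjusted p = 0.706, edgeR). A pseudogene copy of Ndufa12 is annotated in the mouse genome, so its counts are uncertain.

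The 6 Q module genes had a median log2 fold change of -0.10, with 0 below an unadjusted p of 0.05. Ndufs3, a core subunit of the early assembly intermediate, had 209, 206, 247 and 244 CPM in WT and 207, 193, 237 and 212 CPM in T3TG. Ndufs7, which carries the last iron-sulfur cluster before ubiquinone, had 373, 354, 396 and 422 CPM in WT and 361, 363, 394 and 364 CPM in T3TG. Ndufs8, with the preceding clusters, had 145, 129, 164 and 166 CPM in WT and 141, 143, 145 and 129.7 CPM in T3TG. In each of these 3 core genes the groups overlapped, and the log2 fold changes were -0.09, -0.06 and -0.11, with SE between 0.08 and 0.09.

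Ndufa6, an accessory subunit of the LYR family that binds the acyl carrier protein, had 179, 194, 235 and 212 CPM in WT and 181, 188, 194 and 158 CPM in T3TG. It was the lowest of the module at -0.19 (SE 0.10). Ndufa9, an accessory subunit near the ubiquinone site, had 214, 204, 247 and 239 CPM in WT and 223, 204, 219.9 and 203 CPM in T3TG, with a log2 fold change of -0.09 (SE 0.09). Ndufa5 was between them at -0.15 (SE 0.11).

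The 9 proximal pump genes, all accessory, had a median log2 fold change of -0.13 and held both ends of the range. Ndufa3 (chromosome 7, 3617373 to 3620327, mm10), a small subunit with a single membrane span, had 114, 154, 171 and 154 CPM in WT and 119.6, 113, 136 and 112 CPM in T3TG. Its means were 148 ± 24.1 and 119.9 ± 11.3 CPM, which puts it at -0.31 on the log2 scale (SE 0.11; adjusted p = 0.452, edgeR). WT replicates 2, 3 and 4 were above every T3TG library and WT replicate 1 was among them; an exon is overlapped by Tfpt on the other strand. Ndufa10, a subunit related to nucleoside kinases, had 245, 245, 263 and 277 CPM in WT and 258, 256, 259 and 246 CPM in T3TG. The groups were interleaved and the gene was at -0.02 on the log2 scale (SE 0.08), with an interval of 0.881 to 1.11 times the WT level.

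Ndufa1, encoded on the X chromosome, was next to Ndufa3 at -0.27 (SE 0.13). Ndufc1 (-0.18), Ndufs5 (-0.14) and Ndufc2 (-0.13) lay in the middle of the module. Ndufa13, also known as GRIM-19, and Ndufa11 were both at -0.08, and Ndufa8 was at -0.07. Of the 9, only Ndufa3 was below an unadjusted p of 0.05.

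The 10 distal pump genes, all accessory and all of the Ndufb series, had a module median of -0.17, with members from -0.22 to -0.08. That was the lowest of the module medians, but the proximal pump was as low without the even-count libraries (-0.20 in both) or with a term for them, and the N module was lower with a term for title number 6 or with length offsets. Ndufb3, a small subunit with a membrane span, had 76.6, 92.5, 103 and 109 CPM in WT and 84.1, 80.5, 83.3 and 78.1 CPM in T3TG. The T3TG libraries were close together and below 3 of the 4 WT libraries, and the gene was at -0.22 on the log2 scale (SE 0.10; adjusted p = 0.574, edgeR). Ndufb4, with matches for NRF1 and the estrogen-related receptors above, had 59.2, 77.2, 90.5 and 75.0 CPM in WT and 64.9, 82.6, 69.9 and 67.4 CPM in T3TG. It was the least different of the module at -0.08 (SE 0.12), its sign turned without WT replicate 3 (0.01), and 2 further Ndufb4 copies are annotated, so its counts are uncertain.

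Ndufb9, a LYR family subunit, had 369.5, 434, 528 and 486 CPM in WT and 418, 394, 446 and 371 CPM in T3TG, with WT replicate 1 the lowest library of all 8. Its log2 fold change was -0.16 (SE 0.11). Ndufb6 (-0.21), Ndufb11 (-0.20), Ndufb2 (-0.19) and Ndufb10 (-0.19) were lower than the module median, and Ndufb5 (-0.14), Ndufb7 (-0.14) and Ndufb8 (-0.12) were above it.

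Ndufab1, the mitochondrial acyl carrier protein, is present in complex I in both membrane-arm and Q module positions and also serves lipoic acid synthesis. It had 191, 191, 233 and 239 CPM in WT and 192, 222, 205 and 185 CPM in T3TG. The values of WT replicates 3 and 4 were above all of T3TG, and the log2 fold change was -0.09 (SE 0.10).

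Core and accessory subunits were compared as the design of the list asks. The core median was -0.10 (-6.55%) and the accessory median -0.14 (-9.35%). With the offsets for transcript length described below they were -0.06 and -0.08, and the part of length in this comparison was not tested. The difference between the mean log2 levels of core and accessory genes, set to 0 in the WT mean, was 0.16, -0.10, -0.06 and -0.00 in WT and 0.05, 0.04, 0.00 and 0.13 in T3TG. The T3TG values all lay within the range of the WT libraries.

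**Figure D3:**
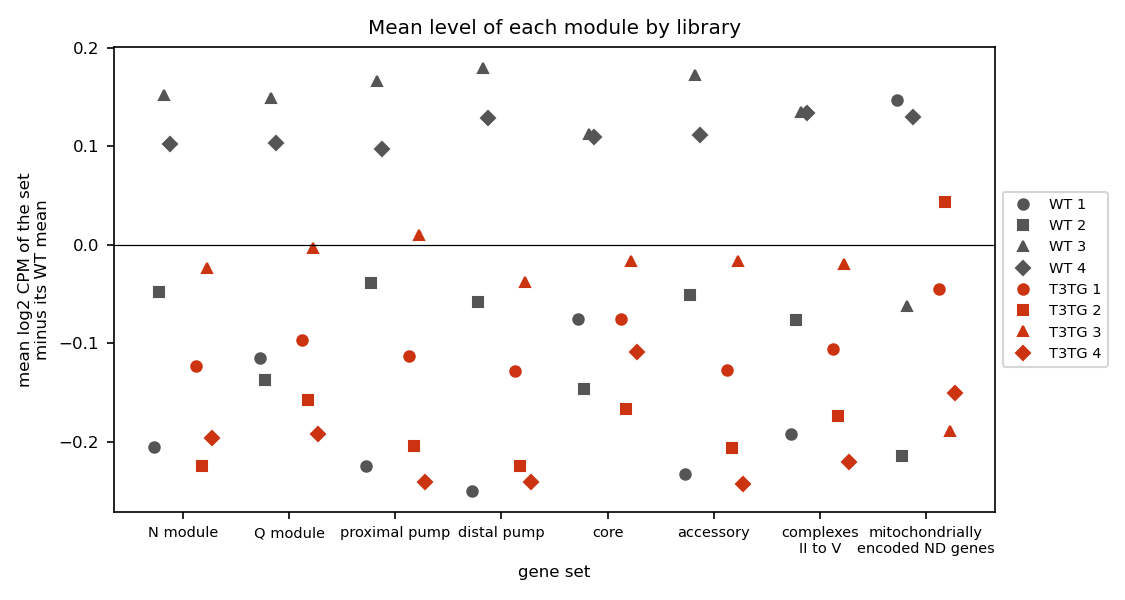
Mean log2 CPM of each module, of core and accessory genes, of complexes II to V and of the mitochondrially encoded ND genes in each library, minus the WT mean of the same set. In the nuclear sets WT 3 and WT 4 lie above 0, while WT 1 and WT 2 fall among or near the T3TG libraries; in the ND genes the order of libraries is another.

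Levels per kb of transcript, from the transcript lengths of GENCODE vM21, differed 9.36-fold among the members in WT. Ndufb9 had the highest level at 645.7 ± 97.2 CPM per kb in WT and 578 ± 45.6 CPM per kb in T3TG. Ndufs7 and Ndufb8 followed at 509.6 and 487 CPM per kb in WT, within each other's spread. Ndufv3 had the lowest at 69.0 ± 10.4 CPM per kb in WT and 64.7 ± 4.82 CPM per kb in T3TG, with Ndufa12 (74.1) and Ndufb4 (77.7) within its spread. The median level in WT was 212 CPM per kb for core and 181 CPM per kb for accessory genes.

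**Figure D4:**
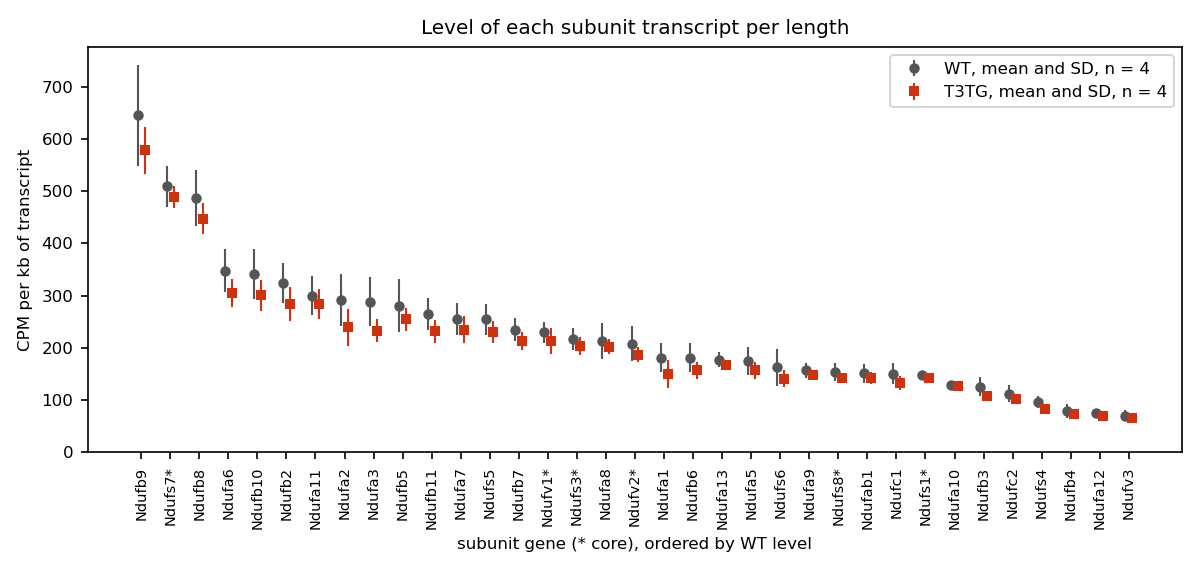
Mean level of each subunit gene in CPM per kb of transcript (y axis), ordered by the WT level, with SD bars for 4 WT and 4 T3TG libraries, core genes starred. Levels run from 645.7 for Ndufb9 to 69.0 for Ndufv3 in WT, and the bars of the groups overlap in nearly every gene.

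After removal of the group means the members varied together over the 8 libraries. Of 595 pairs of members 586 had a positive Pearson r, with a median of 0.754 and a range from -0.445 to 0.990. These are descriptions over 8 libraries that share depth and scaling, and pairs of other genes were not computed for comparison. Ndufb8 and Ndufb9 followed the mean of the other members most closely (r = 0.985 and 0.984). Ndufs1 followed it least (r = 0.19), then Ndufa12 (0.41), Ndufb4 (0.55) and Ndufv1 (0.60).

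Subunits of complexes II to V, from a list chosen with earlier results known, were lower in 40 of 40 with a median of -0.13, and 0 passed. Over libraries the complex I mean followed theirs: the difference of the 2 means had an SD of 0.023 in WT and was -0.0085 ± 0.013 in T3TG. Cox8b, a muscle form of a cytochrome oxidase subunit, was at -0.34 (SE 0.12), and Uqcr10 of complex III at -0.21 (SE 0.10). The 7 complex I subunits encoded in mitochondrial DNA had other values. Of them 5 were lower and 2 higher, with a median of -0.06 and 0 at an unadjusted p under 0.05. Their mean log2 level relative to WT was 0.15, -0.21, -0.06 and 0.13 in WT and -0.04, 0.04, -0.19 and -0.15 in T3TG. By this mean, which weighs all 7 genes alike, WT replicate 1 was the highest library, and it was among the lowest for the nuclear genes. By summed level T3TG replicate 2 was the highest (48863 CPM), then WT replicate 4 (45976 CPM) and WT replicate 1 (45900 CPM). The members with the lowest p were ND6 at 0.17 (SE 0.12) and ND4L at -0.43 (SE 0.32), the latter with fewer than 4 CPM in every library. ND3 was low too, with means of 11.6 CPM (WT) and 9.92 CPM (T3TG), against 15208 and 14602 CPM for ND1. The mean log2 level above weighs these low genes like the others.

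Assembly factors, which build the complex and leave it, were lower in 15 of 16 tested genes with a median of -0.09, and 0 passed. Ndufaf4, which acts on the early Q module intermediate, was at -0.21 (SE 0.09), and Ndufaf7, a methyltransferase of mitochondria, at -0.23 (SE 0.12). Of 12 regulators of respiratory genes 8 were lower, with a median of -0.07 and 0 passing. Nrf1, whose motif is shown above, was at -0.06 (SE 0.11), Yy1 at 0.10 (SE 0.09) and Esrra at -0.12 (SE 0.09). The lowest p was that of Ppargc1b, a coactivator of mitochondrial genes, followed by Tfam, which packages mitochondrial DNA, at -0.15 (SE 0.09). Ppargc1b had 27.9, 29.8, 24.7 and 21.3 CPM in WT and 18.9, 19.2, 13.5 and 15.6 CPM in T3TG, at -0.63 (SE 0.13, edgeR adjusted p = 0.109). Of the 12 regulators 2, Ppargc1b and Tfam, were lower without overlap, against 1.66% of all genes. For Tfam this was nearly a tie, with 42.42 CPM in T3TG replicate 3 and 42.48 CPM in WT replicate 1 (adjusted p = 0.683, edgeR). Ppargc1a, related to Ppargc1b, went the other way, at 0.45 (SE 0.42). Of 7 mitochondrial proteases 6 were lower with a median of -0.05; Clpx, the unfoldase of the ClpXP protease, was at -0.12 (SE 0.07) and Spg7 at -0.08 (SE 0.08).

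Several other gene sets also differed in mean between the groups, and their part in the result was not tested. They did not all follow the subunit genes from library to library. In bulk muscle, fewer cells of a type and less RNA per cell cannot be told apart. Markers of fibro-adipogenic progenitors, the connective tissue cells of muscle, were higher in T3TG in 14 of 14, with a median of 0.46 and 3 passing (Col3a1, Fbn1 and Pi16). Their summed level was 1843 to 2291 CPM in WT and 2463 to 2974 CPM in T3TG. Macrophage markers were higher in 12 of 12 (191 to 242 against 253 to 444 CPM) and endothelial markers in 9 of 10 (375 to 480 against 507 to 585 CPM), with 0 passing in both. The 9 tested adipocyte markers were all higher, but overlapped in sum (484 to 914 against 446 to 1155 CPM), and Lep was not tested. No tested marker was at 0 in any library. Fast fiber genes were lower in 12 of 13 with a median of -0.14 (137040 to 157470 against 122920 to 154960 CPM), and slow fiber genes in 9 of 10 with a median of -0.13 (1885 to 4303 against 1996 to 3131 CPM). With libraries scaled to the fiber genes instead, 25 of 35 members were lower and their median was -0.04, where the median of all genes was 0.09 and 28.1% of genes were below 0.

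Transcript length moved with the result, and its part was not tested either. The members are short, with a median of 861 bases against 2772 for tested genes, of which 93.9% had a length. The log2 fold change was higher in longer transcripts across all genes (Spearman's rho = 0.154) and across the 35 members (rho = 0.499), which are genes and not independent replicates. Within single libraries, the rho of all genes' deviation against length was 0.176, -0.0346, -0.243 and -0.162 in the WT replicates, numbered 1 to 4. For the T3TG replicates, in the same order, it was 0.0835, 0.0623, -0.114 and 0.242. WT replicates 3 and 4, the libraries highest in the mean log2 level of the 35 members, had the lowest rho. T3TG replicate 4 and WT replicate 1, the libraries lowest in that mean (-0.22 and -0.21 relative to WT, with T3TG replicate 2 at -0.20), had the highest. With an offset for transcript length in the model, an alternative added after the data were seen, the members' median was -0.07. The core median was then -0.06 and the accessory median -0.08. In that fit 33 of 35 members were lower, against 52.5% of all genes.

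**Figure D5:**
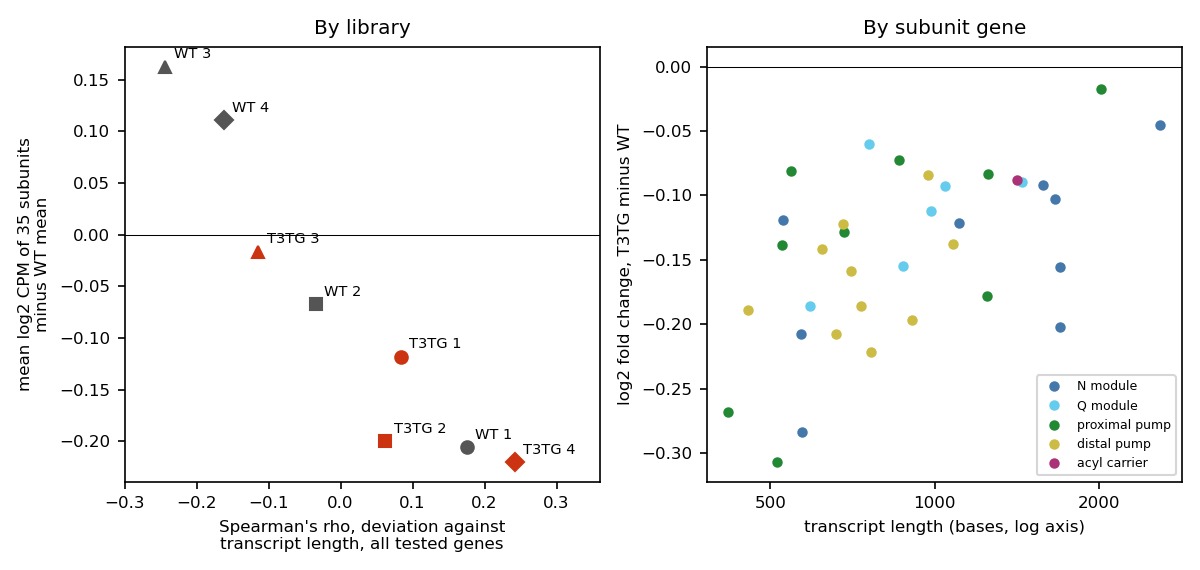
Left, the mean log2 CPM of the 35 subunits minus the WT mean (y axis) against Spearman's rho between each tested gene's deviation and its transcript length (x axis), 1 point per library; right, the log2 fold change of each subunit gene against its transcript length on a log axis. WT 3 and WT 4 lie at negative rho and high level, WT 1 and T3TG 4 at positive rho and low level.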

How the data were processed

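The deposited file is 1 table of raw read counts, with 35976 rows of gene symbols and 1 column per library. Per the submitters' processing notes, HISAT2 2.2.1, HTSeq 0.9.1, DESeq2 1.34.0 and the mm10 build were used; the sources used here do not give the annotation or the strand setting. Counts of 13 members, an exon of which a gene on the opposite strand overlaps, can therefore be affected, in a direction that is not known. Ndufb2, Ndufb8 and Ndufb9 have an exon overlapped by a gene on the same strand. Pseudogene or gene copies are annotated for Ndufa11, Ndufa12, Ndufab1, Ndufb4, Ndufs5 and Ndufs6, whose counts are uncertain. The 27 rows named by a date (0.0885% to 0.0961% of counts) were left out.

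With edgeR 4.0.16 (R 4.3.3), low counts were removed by filterByExpr, libraries were scaled by TMM, and T3TG was compared with WT by a robust quasi-likelihood fit without covariates. Benjamini-Hochberg adjustment ran over 14064 genes, at a threshold of 0.05. The SE is the absolute log2 fold change divided by the square root of F. Levels are CPM, and scores are mean log2 CPM (prior count 2). Per-length levels used the principal transcript in GENCODE vM21. The scripts were tested on simulated data.

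The members and lists were chosen with earlier results of these data known. Values in every library were given for core members, the lowest and highest accessory member of each module by fold change, members with an unadjusted p under 0.05, the highest and lowest level per length, and Ndufab1; from the other complex I, respiratory, regulator and protease lists the 2 members with the lowest p, and from marker lists those called. Esrra, Nrf1, Yy1, Ppargc1a and Ndufa12 were named in addition. Alternatives were other scalings and filters, DESeq2 1.42.0, terms for title numbers and even-count libraries, and leaving out each library.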

Additional observations from a re-analysis of the deposited data

Results flagged for a closer look

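In 6 of 70 groups of 4 libraries (35 members in 2 groups) 1 library stood far from the other 3 by Dixon's criterion, which chance flags in about 1 of 20 groups. In T3TG replicate 2, Ndufv1 was low at 293.3 CPM, with the others between 369.2 and 380.2 CPM. In WT replicate 1, Ndufv3 was low at 84.51 CPM, with the others between 115.9 and 119.4 CPM. In WT replicate 2, Ndufs1 was low at 355.2 CPM, with the others between 386.4 and 391.8 CPM. T3TG replicate 3 was high in Ndufa7 at 143.8 CPM, against 113.9 to 118.8 CPM, and in Ndufs7 at 394.5 CPM, against 360.7 to 363.9 CPM. T3TG replicate 1 was low in Ndufa12 at 70.1 CPM, against 77.36 to 77.65 CPM. T3TG replicates 2 and 3, which hold 3 of these values, are the libraries with an excess of even counts.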

How the results depend on the processing

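Under 21 alternatives 0 members passed the adjusted threshold. The shares of all genes are given above for only some of these fits. The median of all genes ran from -0.01 without a filter on low counts to 0.09 with libraries scaled to fiber genes. These fits reuse the same genes and all or most of the same libraries, so they are not independent checks. Of 735 fold changes of the 35 members 717 stayed below 0. The other 18 turned above 0; the cause was not tested. With libraries scaled to fiber genes, which moves the median of all genes to 0.09, the 10 were Ndufv3 (0.00239), Ndufs1 (0.046), Ndufs7 (0.030), Ndufa9 (0.00445), Ndufa8 (0.017), Ndufa10 (0.078), Ndufa11 (0.010), Ndufa13 (0.008565), Ndufb4 (0.017) and Ndufab1 (0.00786). With library size only they were Ndufs1 (0.004505) and Ndufa10 (0.033). Ndufs1 was at 0.0275 with a term for the even-count libraries and 0.0273 without them. With length offsets Ndufs7 was at 0.0146 and Ndufa11 at 0.0195. Leaving out each library moved Ndufa10 between -0.049 and 0.016 and Ndufb4 between -0.19 and 0.014. Members without overlap were 0 with library size only (0.576% of all genes) and 1 to 7 with 1 library left out: 7 without WT replicate 1 (3.71% of all genes), 2 without WT replicate 2 (422 of 14064 genes) and 1 without each other library (2.89% to 4.11%). The members' median ran from -0.21 to -0.08 with 1 library left out, the core median from -0.14 to -0.05 and the accessory median from -0.23 to -0.09. For the modules these ranges were -0.20 to -0.09 (N), -0.16 to -0.06 (Q), -0.22 to -0.06 (proximal pump) and -0.25 to -0.12 (distal pump), and length offsets put the proximal pump at -0.04. Members lower at an unadjusted p under 0.05 were 4 in the main fit, 10 without a filter on low counts, 18 without WT replicate 1, 7 without T3TG replicate 3 and 0 without WT replicate 3.

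Only the first title numbers 2 and 6 occur in both groups, and their meaning is not given. Libraries of the same number had deviations correlated at -0.0537 to 0.155 (4 pairs), with a median of 0.0971. For those of different numbers the correlations were -0.189 to 0.0847 (12 pairs), with a median of -0.00892. With a replicate block on that number, WT replicates 1 and 3, each alone under its number, add nothing to the fold change. The fold change then rests on WT replicate 2 against T3TG replicate 1 and WT replicate 4 against T3TG replicates 2 to 4. In that fit 0 members were called and 35 were lower, where the median of all genes was 0.00. The medians were -0.14 for all members, -0.10 for core, -0.18 for accessory and -0.16 for the N module. They were -0.10 for the Q module, -0.14 for the proximal and -0.20 for the distal pump.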
